A study of Homo sapiens with 6 samples.

Results

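The Wnt genes described here are the ligands, secretion factors, receptors, antagonists and intracellular effectors of the Wnt pathway, chosen by gene symbol alone. The rule took the WNT, FZD, DKK, SFRP, DVL, TCF7 and AXIN symbols together with LRP5, LRP6, LEF1, CTNNB1, APC, RNF43, ZNRF3, NKD1, NKD2, WIF1, PORCN and WLS. It found 43 of the 15794 genes in the authors' deposited table by symbol, and the rule itself uses no measured value. Of 57 protein-coding symbols in GENCODE 29 that match the rule, the other 14 have no row among those analysed here: WNT1, WNT2, WNT3A, WNT7A, WNT8A, WNT9B, WNT16, FZD10, DKK2, DKK4, SFRP2, SFRP4, SFRP5 and WIF1.

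The cells were eHAP, an established haploid line that descends, by way of HAP1, from a human chronic myeloid leukaemia. Both groups expressed Cas9, the nuclease that cuts DNA at sites set by a guide RNA, were transfected with a plasmid, kept in puromycin between 24 and 72 h, and harvested on day 5. The knockout group (3 samples, genotype given as knockout, target gene TFDP1) carried guides against TFDP1, and the control group (3 samples, labelled NC, wild-type, target gene none) did not. TFDP1 encodes DP1, the DNA-binding partner of most E2F transcription factors. The protocol describes no cloning of single cells, and the sources used here do not give the fraction of cells edited. Each RNA sample came from 500000 eHAP cells, to which 10000 S2 cells of Drosophila were added as a spike-in, and was selected by poly(A).

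Wnt proteins are secreted lipid-modified signals. In the canonical branch a Wnt binds a Frizzled receptor together with LRP5 or LRP6, Dishevelled is recruited, and the destruction complex built on AXIN and APC stops degrading beta-catenin, which enters the nucleus and joins TCF and LEF factors at target genes. Other branches act through Frizzled or alternative receptors on cell polarity and movement without beta-catenin. Several target genes, among them AXIN2, NKD1, ZNRF3, RNF43 and NOTUM, encode proteins that dampen the signal again.

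The authors' deposited table gives 1 log2 fold change and 1 mean level (log2 CPM, counts scaled to library size) for each gene over the 6 samples, with a p-value and its adjusted value (FDR) from edgeR's likelihood ratio test. Since no values per sample were analysed here, no spread between replicates and no library depth can be given, and the authors' test carries all the information on replicate variation. The approximate standard error (SE) printed with a fold change was made by dividing the size of the log2 fold change by the root of its likelihood ratio. The table does not name the numerator of its fold changes. TFDP1 itself had a log2 fold change of 1.17 (SE 0.032) at 226 CPM with an adjusted p of 1.08e-283 in edgeR's test. Directions are therefore given relative to TFDP1: a gene called positive had more transcript where TFDP1 had more, a gene called negative had less there, and whether that side is the knockout or the control cannot be read from the table. An implied level in each group, printed below, is what the fold change and the mean level give together when the mean is taken as the average of both groups. In bulk RNA, fewer cells that express a gene and less of its RNA per cell cannot be told apart.

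Markers of other cell types were mostly scarce. Of 14 blood markers 5 had a row, with 21.4 CPM in all and 1 of them at 10 CPM or more, and PTPRC, SPI1 and GATA1 were among those without one. Of 9 fibroblast markers 5 had a row, 4 of these negative and none positive (median level 2.97 CPM, median log2 fold change -1.36), and of 7 epithelial markers 3 had a row, all 3 negative (53.4 CPM, median -2.94). Of 8 neuronal markers 7 had a row, with 3 negative and 1 positive and 370.6 CPM in all (median level 5.11 CPM). For comparison, 17.3% of all genes were positive and 22.2% negative at the authors' FDR under 0.05. The called fibroblast and epithelial markers lay on the same side as the negative Wnt genes below, and their part in those results was not tested.

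The Wnt genes did not move to one side. At the authors' FDR under 0.05, 10 of the 43 were positive, 14 negative and 19 not called, so that 24 (55.8%) were called against 39.5% of all genes in the authors' deposited table. Over all genes 17.3% were positive and 22.2% negative. The share called depends on the level: 23 of 36 Wnt genes at or above 1 CPM were called against 45.4% of all genes there, 1 of 7 below 1 CPM against 12.7%, and 10 of 19 from the median level (23.5 CPM) upward against 51.9%. The median log2 fold change was -0.08 over the Wnt genes and -0.03 over all genes tested. When the median of 77 ribosomal protein genes was set to 0, 12 were positive and 11 negative by the approximate Wald test described under processing. The positive share of the called Wnt genes was then 52.2%, against 41.7% by the same test without that shift, and over all called genes it was 62.5% against 43.9%. Of all genes 26.8% were positive and 16.1% negative with the shift, and without it the approximate test called 40.7%, with 10 positive and 14 negative Wnt genes as in the authors' test.

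**Figure D1:**
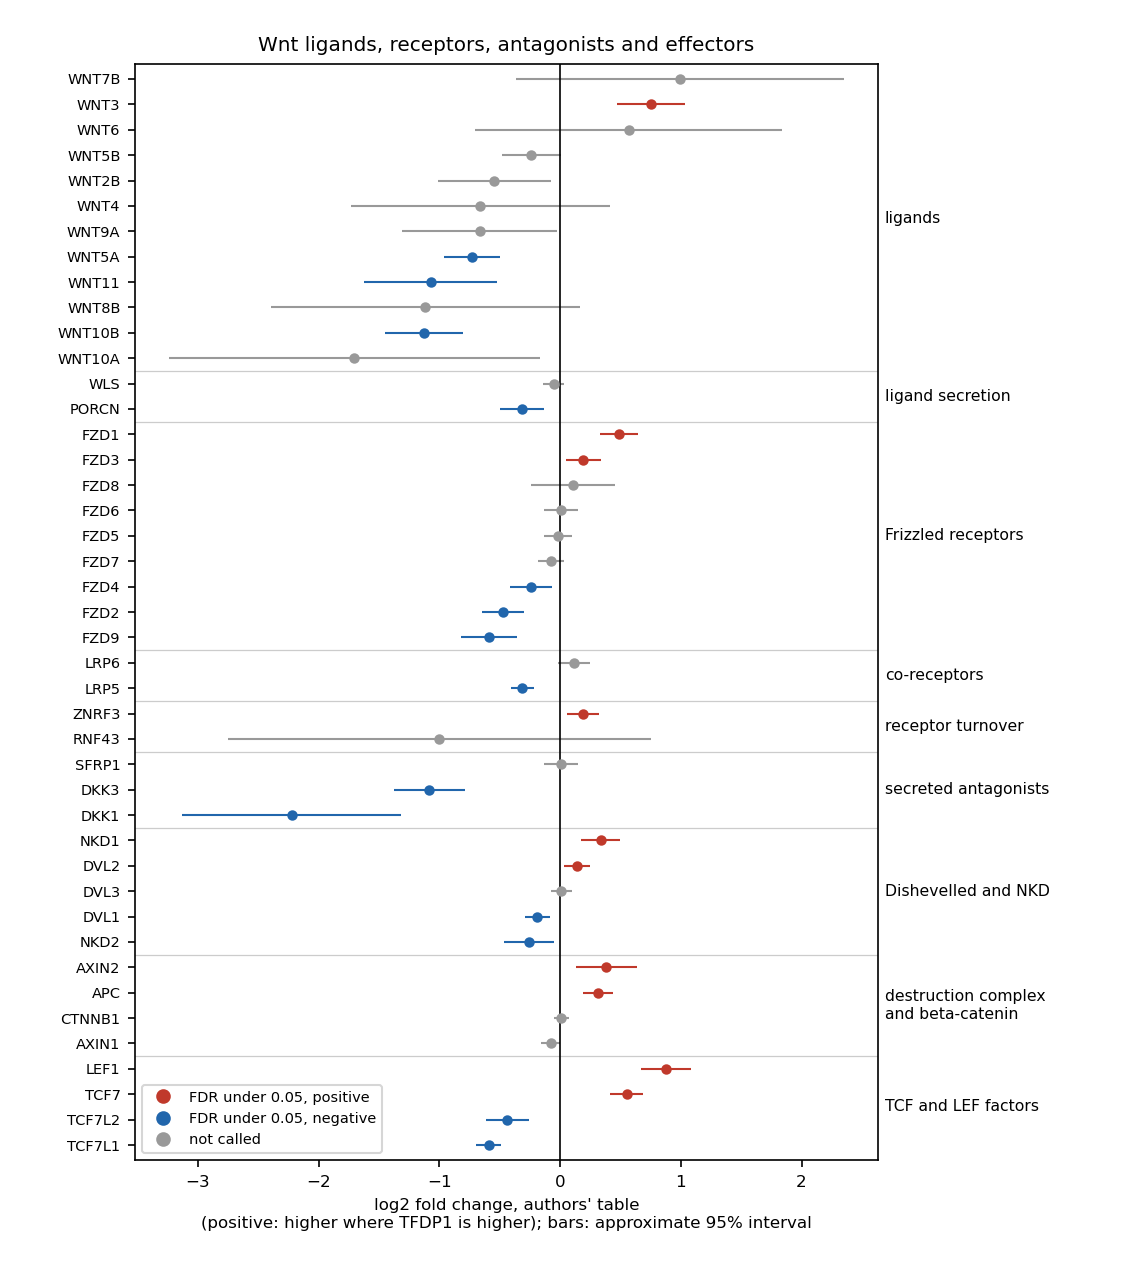
Log2 fold change of each of the 43 Wnt genes (x axis) in the authors' table, grouped by role, with bars for the approximate 95% interval. Red points are positive, blue points negative and grey points not called at FDR under 0.05. DKK1 lies furthest to the left at -2.22, and the called TCF and LEF factors fall on either side of 0.

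The 4 called genes with at least 2-fold change, 9.30% of the 43 against 4.43% of all genes, were DKK1, WNT10B, DKK3 and WNT11 in the authors' deposited table. All 4 were negative and all encode secreted proteins. No receptor or intracellular effector among the called genes reached that size, and the next in order were LEF1 at 1.84-fold, WNT3 at 1.69-fold and WNT5A at 1.66-fold. The 4 lay between 0.630 and 5.88 CPM, a range in which large fold changes were more common than among abundant genes. Of all genes at or above the median level 0.620% were called with 2-fold change or more, and none of the 19 Wnt genes there was.

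**Figure D2:**
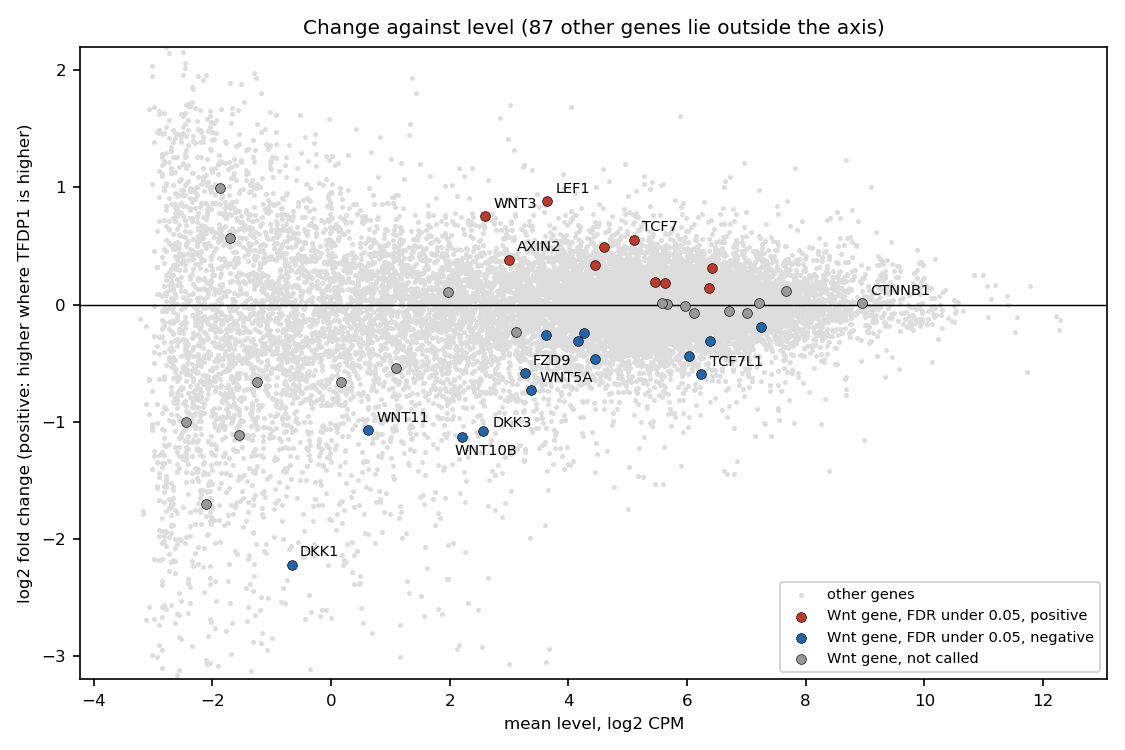
Log2 fold change (y axis) against mean level in log2 CPM (x axis) for the 43 Wnt genes, coloured by call, over all other genes in grey, of which 87 lie outside the y axis. The Wnt genes with the largest called changes sit at low and middle levels, and CTNNB1, the most abundant of them, lies on the zero line.

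Of the 12 ligand genes 1 was positive, 3 were negative and 8 were not called, so that 33.3% were called against 39.5% of all genes. At or above 1 CPM 4 of 7 were called against 45.4% of all genes there, and below it 0 of 5 against 12.7%. Their median log2 fold change was -0.66, with -0.67 over the 7 and -0.66 over the 5. The median over all genes was -0.01 at or above 1 CPM and -0.20 below it. Ligand transcripts were scarce, from 0.231 to 10.4 CPM. WNT5A, which acts mainly in the branches without beta-catenin, was the most abundant by CPM, with an implied level of 12.9 CPM in the group with less TFDP1 and 7.79 in the group with more. Its log2 fold change in the authors' deposited table was -0.73 (SE 0.12, adjusted p = 6.15e-09 in edgeR's test). WNT10B, a canonical ligand, had implied levels of 6.37 and 2.91 CPM in the same order, a log2 fold change of -1.13 (SE 0.17, adjusted p = 1.78e-10). WNT11, another ligand of the polarity branch, went from 2.09 to 0.993 CPM, at -1.07 (SE 0.28, adjusted p = 7.37e-04). AP000785.1 on the opposite strand overlaps 204 of its exon bases.

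WNT3, a canonical ligand, was the one ligand called on the other side. Its implied level was 4.49 CPM in the group with less TFDP1 and 7.57 CPM in the group with more, a log2 fold change of 0.75 (SE 0.14) with an adjusted p of 1.84e-06 in edgeR's test. Its implied CPM is near that of WNT5A where TFDP1 is high and below it where TFDP1 is low. Per kilobase of the longest GENCODE transcript the 4 best represented ligands were WNT5B (3.79 CPM per kb), WNT10B (2.04), WNT3 (1.80) and WNT5A (1.68), with a length that may not be that of the transcript expressed.

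Among the uncalled ligands WNT5B, the close relative of WNT5A, had a log2 fold change of -0.24 (SE 0.12) at 8.72 CPM in the authors' deposited table. WNT9A stood at -0.67 and WNT2B at -0.54. WNT2B had an adjusted p of 0.0645, which became 0.0483 among genes at or above 1 CPM and 0.0136 with length and GC trends removed, and 2661 of its exon bases overlap ST7L on the opposite strand, itself at 0.22. The other 5 uncalled ligands lay below 1 CPM: WNT7B (0.99), WNT6 (0.57), WNT4 (-0.66), WNT8B (-1.12) and WNT10A (-1.70). The half-width of their approximate 95% intervals corresponds to between 2.10-fold (WNT4) and 2.90-fold (WNT10A). A call needed more than that after adjustment, since WNT10A was not called at 3.26-fold (adjusted p = 0.0807 in edgeR's test).

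Wnt ligands need the acyltransferase PORCN to receive their lipid and the carrier WLS to reach the surface. PORCN was negative at -0.31 (SE 0.092, adjusted p = 0.00267 in edgeR's test) at 17.9 CPM in the authors' deposited table, a call lost with length and GC trends removed (-0.19, adjusted p = 0.0842). WLS, at 104 CPM, was not called at -0.05, with an approximate 95% interval from -0.14 to 0.03.

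The secreted antagonists DKK1 and DKK3 were both negative. DKK1, which binds LRP5 and LRP6 and blocks canonical signalling, had the largest called change of all 43 genes: implied levels of 1.04 CPM in the group with less TFDP1 and 0.222 CPM in the group with more, and a log2 fold change of -2.22 in the authors' deposited table. Its adjusted p was 1.27e-05, but so few reads lay behind it that the approximate 95% interval runs from -3.13 to -1.32. PRKG1-AS1 on the opposite strand overlaps 212 exon bases of DKK1. DKK3, a divergent member of the family with less certain action on LRP receptors, was better measured. It went from 7.98 to 3.77 CPM, at -1.08 (SE 0.15, adjusted p = 9.79e-12 in edgeR's test). SFRP1, which binds Wnt ligands directly, was far more abundant at 47.6 CPM and lay at 0.01, with an interval from -0.13 to 0.15.

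**Figure D3:**
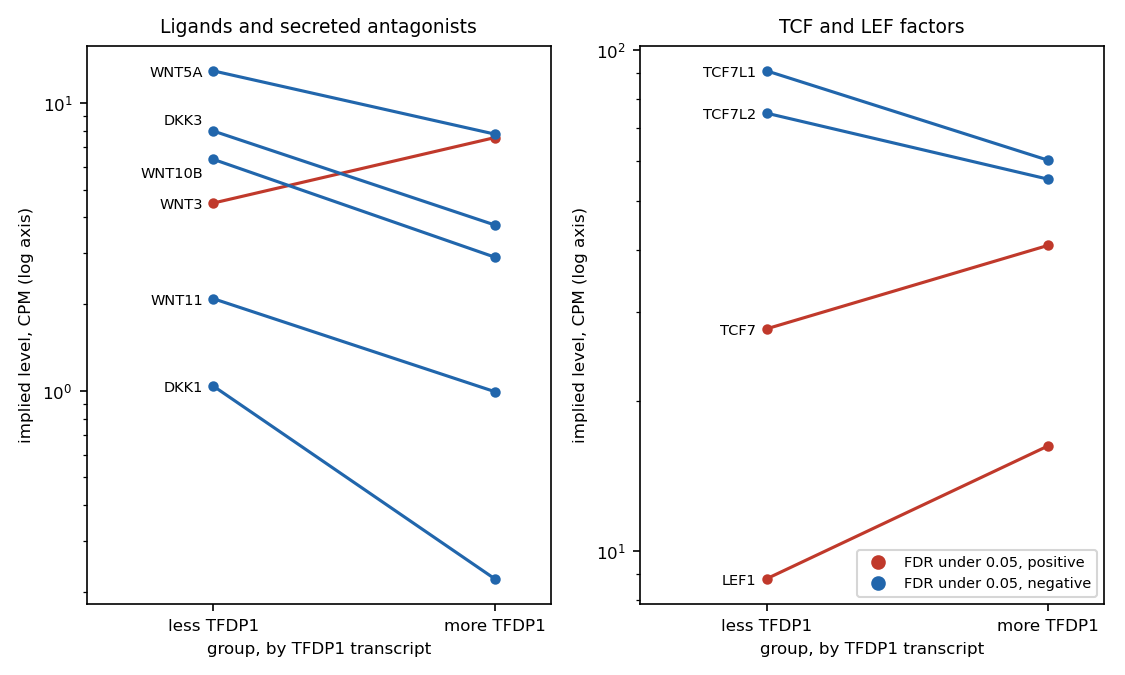
Implied level in CPM (log axis) of the called ligands and secreted antagonists (left) and of the TCF and LEF factors (right) in the group with less and the group with more TFDP1 transcript, with 1 line per gene. WNT3, TCF7 and LEF1 slope upward and the other lines slope downward.

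The 9 Frizzled receptors split between both sides, with 2 positive, 3 negative and 4 not called and a median of -0.015. The share called was 55.6%, against 45.4% of all genes at or above 1 CPM, where all 9 lie. Changes were small, FZD9 having the largest. FZD1 was positive at 0.49 (SE 0.080, adjusted p = 1.59e-08 in edgeR's test), with implied levels of 20.3 CPM in the group with less TFDP1 and 28.4 in the group with more. FZD2, a close relative of FZD1, was negative at -0.47 (SE 0.089, adjusted p = 1.24e-06) and went from 25.4 to 18.3 CPM. The order of this pair by implied CPM thus differed between the groups, but CPM is not corrected for length. Their longest transcripts have 6963 (FZD1) and 2112 bases (FZD2), and the mean levels were 3.49 and 10.3 CPM per kb. Per kilobase FZD2 was above FZD1 in both groups. FZD7, the third member of that subfamily, was not called at -0.07 (interval from -0.18 to 0.03).

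FZD9 was negative at -0.59 (SE 0.12, adjusted p = 5.03e-06 in edgeR's test), going from 11.5 to 7.66 CPM in the authors' deposited table. FZD4, a receptor for norrin as well as for Wnts, was negative at -0.24 (adjusted p = 0.0206). The call was lost when re-centred on ribosomal protein genes (-0.16, adjusted p = 0.134), and 1399 exon bases of FZD4 overlap PRSS23 on the opposite strand. FZD3, a receptor of the polarity branch, was positive at 0.19 (adjusted p = 0.0317) but changed sign to -0.043 (adjusted p = 0.693) with length and GC trends removed, its longest transcript being 13740 bases. FZD5 (-0.02), FZD6 (0.01) and FZD8 (0.11) were not called. FZD7 was the most abundant receptor by CPM at 69.4 and also per kilobase at 18.0, followed per kilobase by FZD6 at 13.4, FZD2 at 10.3 and FZD5 at 9.29.

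The co-receptors LRP5 and LRP6 differed in call. LRP5 was negative at -0.31 (SE 0.049, adjusted p = 3.62e-09 in edgeR's test), going from 93.1 to 75.0 CPM. LRP6, at 203 CPM, had a log2 fold change of 0.12 (SE 0.067, adjusted p = 0.176) in the authors' deposited table. Re-centred on ribosomal protein genes LRP6 was positive at 0.20 (adjusted p = 0.00872 in the approximate Wald test). With length and GC trends removed it was not called at -0.06 (adjusted p = 0.496), and LRP5 stayed negative at -0.22 (adjusted p = 5.08e-05). The approximate 95% intervals of the pair around the authors' values, from -0.41 to -0.21 and from -0.01 to 0.25, do not overlap. This is a description and not a test of their difference, and the 2 values lie closer together with the trends removed.

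ZNRF3, a ubiquitin ligase that removes Frizzled receptors from the surface, was positive at 0.19 (SE 0.068, adjusted p = 0.0197 in edgeR's test), and not called with length and GC trends removed (0.16, adjusted p = 0.0552). Its relative RNF43 was near the lower limit of the table at 0.184 CPM and was not called (interval from -2.75 to 0.75). On the same strand 4326 of its exon bases overlap AC004687.2 and 143 overlap SUPT4H1, and on the opposite strand 1521 overlap TSPOAP1-AS1. The effect of these overlaps on its level and fold change was not tested, so little can be said of RNF43. Of the 3 Dishevelled genes, whose products pass the signal from the receptors, DVL1 was negative at -0.19 (SE 0.053, adjusted p = 0.00162), DVL2 positive at 0.14 (SE 0.055, adjusted p = 0.0326) and DVL3 not called at 0.01. DVL1 was no longer called with length and GC trends removed (-0.02, adjusted p = 0.751) or re-centred on ribosomal protein genes (-0.11, adjusted p = 0.0914). All 3 were abundant, from 82.3 to 152 CPM, and none changed by more than 1.14-fold.

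NKD1 and NKD2 bind Dishevelled and restrain it. NKD1 was positive at 0.34 (SE 0.081, adjusted p = 2.19e-04 in edgeR's test), with implied levels of 19.4 and 24.5 CPM in the groups with less and with more TFDP1. NKD2 was negative at -0.26 (adjusted p = 0.0422) in the authors' deposited table. That call was lost at an FDR of 0.01, with both ways of re-centring (adjusted p = 0.0619 on the median gene and 0.171 on ribosomal protein genes) and with length and GC trends removed (-0.07, adjusted p = 0.633).

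CTNNB1, which encodes beta-catenin, did not pass the test. It was the most abundant of the 43 genes at 495 CPM, and per kilobase at 101 CPM per kb. Its log2 fold change in the authors' deposited table was 0.01 (SE 0.033, adjusted p = 0.840), with an approximate 95% interval from -0.05 to 0.08, so a change of more than about 1.05-fold either way would have left the interval. Re-centred on ribosomal protein genes CTNNB1 was positive at 0.09 (adjusted p = 0.0125 in the approximate Wald test). With length and GC trends removed it lay on the other side at -0.08 and was not called (adjusted p = 0.0538). Beta-catenin is regulated mainly through the stability of the protein, which RNA does not show.

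In the destruction complex AXIN2 and APC were positive and AXIN1 was not called. AXIN2, a scaffold whose gene is a standard readout of canonical signalling, had implied levels of 6.90 CPM in the group with less TFDP1 and 9.01 CPM in the group with more. Its log2 fold change was 0.38 (SE 0.13, adjusted p = 0.0105 in edgeR's test), just over an FDR of 0.01. On the same strand 1316 of its exon bases overlap AC004805.1, and the effect of this on its values was not tested. APC, the large scaffold lost in most colorectal tumours, was positive at 0.31 (SE 0.065, adjusted p = 9.55e-06) at 85.8 CPM in the authors' deposited table, and not called with length and GC trends removed (0.13, adjusted p = 0.107), its longest transcript being 10701 bases. AXIN1, the constitutive scaffold, was at -0.08 (interval from -0.16 to 0.0032) and 129 CPM.

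All 4 TCF and LEF factors, the DNA-binding partners of beta-catenin, were called, in opposite pairs. Of all genes at or above 1 CPM, where all 4 lie, 45.4% were called. LEF1 and TCF7, both of which mostly act as activators with beta-catenin, were positive. LEF1 had implied levels of 8.82 CPM in the group with less TFDP1 and 16.2 CPM in the group with more, and a log2 fold change of 0.88 (SE 0.11, adjusted p = 2.62e-15 in edgeR's test). TCF7 went from 27.8 to 40.8 CPM, at 0.55 (SE 0.069, adjusted p = 2.54e-14). TCF7L1, which mostly acts as a repressor, was negative, going from 91.0 to 60.4 CPM at -0.59 (SE 0.051), with the smallest adjusted p of the 43 genes (2.70e-29). TCF7L2 was negative too, from 74.9 to 55.3 CPM at -0.44 (SE 0.091, adjusted p = 1.13e-05). Its SE was 1.64 times the median of genes of like level, the highest such ratio of the 43. TCF7L1 and TCF7L2 remained the more abundant pair in both groups by implied CPM, and per kilobase of the mean level the order was TCF7L1 (25.5), TCF7L2 (15.7), TCF7 (6.42) and LEF1 (3.60). All 4 kept their call and direction under each alternative run. On the opposite strand LEF1 overlaps an antisense gene by 279 exon bases, TCF7L2 overlaps AL158212.2 by 300 and TCF7 overlaps SKP1 by 210. SKP1 stood at -0.13, and the effect of these overlaps was not tested.

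The promoter windows of TCF7L1 and TCF7L2 are shown because these genes moved the same way and the data give no binding that would single out a site. They are the 250 bases before the most upstream start that RefSeq lists on GRCh38.p14, with every CG dinucleotide in capitals. TCF7L1 lies on chr2:85133142-85133391 and TCF7L2 on chr10:112949997-112950246, both on the plus strand and both upstream of the gene's first GENCODE exon. They hold 24 and 21 CG dinucleotides, against a median of 20 over the windows of 11251 genes in the table.
TCF7L1: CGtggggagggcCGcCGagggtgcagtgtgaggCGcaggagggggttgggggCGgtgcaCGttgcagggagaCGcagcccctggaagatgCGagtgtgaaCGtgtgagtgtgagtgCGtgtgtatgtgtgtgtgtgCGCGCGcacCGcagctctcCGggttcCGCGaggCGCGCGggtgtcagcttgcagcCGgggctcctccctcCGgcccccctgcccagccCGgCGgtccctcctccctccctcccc
TCF7L2: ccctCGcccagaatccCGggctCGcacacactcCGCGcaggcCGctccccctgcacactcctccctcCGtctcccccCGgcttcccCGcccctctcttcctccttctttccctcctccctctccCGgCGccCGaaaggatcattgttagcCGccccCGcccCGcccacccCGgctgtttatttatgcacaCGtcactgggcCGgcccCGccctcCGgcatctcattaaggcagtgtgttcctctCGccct
The windows of LEF1 and TCF7 lie inside the annotated bounds of those genes and are not shown. Among the windows searched below, those of WNT3 and WNT5B also lie inside the gene.

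Windows of 30 of the 43 genes were in the RefSeq set and were searched on both strands for E2F words (TTTCCCGC, TTTCGCGC, TTTGCCGC and TTTGGCGC) and TCF/LEF words (CTTTGAT and CTTTGAA), which do not overlap one another. An E2F word stood in 1 of the 30 (3.33%), against 4.30% of the 11251 genes in the table and 2.78% of 27305 windows in all, and a TCF/LEF word in 1 of the 30, against 3.68% and 6.03%. Both shares are near the background. The E2F word was in DVL3, whose transcript was not called, and the TCF/LEF word in DKK1, the gene with the largest called change. They are shown with 30 flanking bases and the word in capitals, DKK1 at chr10:52314156-52314222 and DVL3 at chr3:184155229-184155296, both on the plus strand. The word begins 95 bases before the listed start of DKK1, and 118 bases before that of DVL3, where it is the reverse complement of TTTCCCGC.
DKK1: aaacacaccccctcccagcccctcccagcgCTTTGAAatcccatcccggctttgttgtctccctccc
DVL3: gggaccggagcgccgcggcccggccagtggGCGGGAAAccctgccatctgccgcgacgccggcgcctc
A match is a stretch of letters and not a bound site, and its absence from a window says nothing about the factor.

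The remaining genes of the pathway were described from a list of 115 symbols, older names included, of which 93 had a row. Of these 18 were positive, 28 negative and 47 not called, so that 49.5% were called against 39.5% of all genes. Their median log2 fold change was -0.03, the same as over all genes to 2 decimals. Their median level was 39.9 CPM, and 86 of the 93 lay at or above 1 CPM. Of all genes 45.4% were called at or above 1 CPM and 51.9% from the median level upward. Re-centred on ribosomal protein genes, 30 of the 93 were positive and 19 negative. That makes 61.2% of the called genes of the list positive, against 62.5% over all genes. Without the shift the same approximate test gave 20 and 28.

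Of 11 extracellular and membrane modulators 3 were positive, 5 negative and 3 not called. The share called was 72.7%, against 45.4% of all genes at or above 1 CPM, where all 11 lie. SOSTDC1 among them had the largest single change of the list. This secreted antagonist of Wnt and BMP signals had a log2 fold change of -3.38 (SE 0.26, adjusted p = 1.25e-35 in edgeR's test) at 2.51 CPM in the authors' deposited table. The glypicans GPC3 and GPC4, cell-surface proteoglycans that bind Wnts, were at -1.43 (adjusted p listed at 0) and -0.62 (adjusted p = 1.01e-77), at 334 and 646 CPM. Outside the rule for names and chosen after their values were seen are KREMEN2, a receptor for DKK proteins, at -0.93 (adjusted p = 2.49e-15), and NOTUM, the secreted enzyme that strips the lipid from Wnts, positive at 1.08 (SE 0.23, adjusted p = 1.54e-05) and scarce at 2.35 CPM. The paralogue KREMEN1, also a DKK receptor, was not called at 0.056 and was more abundant (65.0 against 11.7 CPM).

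**Figure D4:**
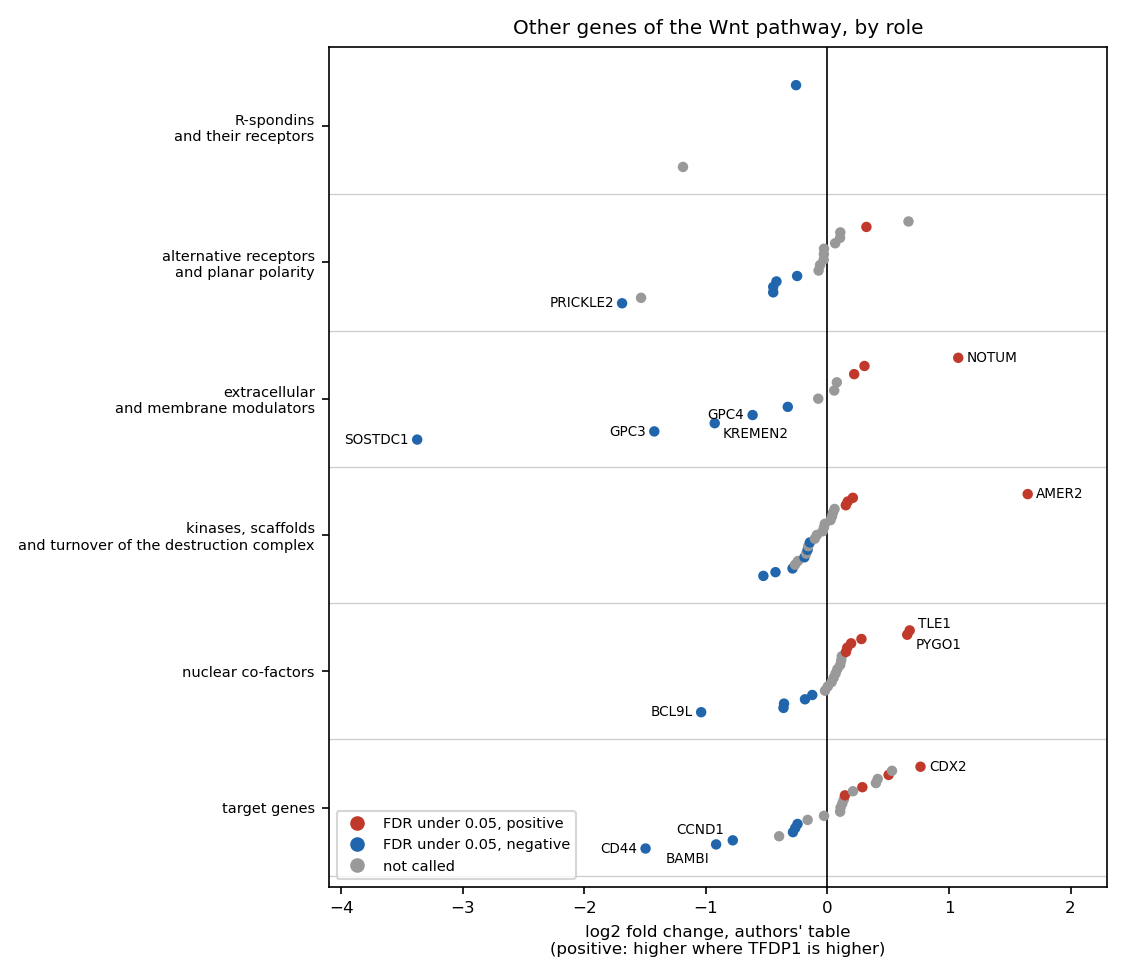
Log2 fold change (x axis) of the 93 other Wnt pathway genes in the authors' table, spread by rank within each role (y axis) and coloured by call. SOSTDC1 at -3.38 stands furthest from 0, and most genes of the destruction complex lie close to it.

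R-spondins strengthen Wnt signals through LGR receptors. LGR4 was negative at -0.26 (adjusted p = 0.00313 in edgeR's test), and RSPO3 was not called at -1.19 (SE 0.74) with 0.254 CPM in the authors' deposited table. Of 16 alternative receptors and polarity genes 1 was positive and 5 negative, so that 37.5% were called against 39.5% of all genes. PRICKLE1 (-0.45), PRICKLE3 (-0.42) and the atypical cadherin CELSR3 (-0.45) had the smallest p. Kinases, scaffolds and turnover factors of the destruction complex gave 4 positive, 6 negative and 13 not called of 23. The share called was 43.5%, against 39.5% of all genes and 45.4% of those at or above 1 CPM. The casein kinase CSNK1D was at -0.29, the Dishevelled-binding DACT3 at -0.53, and CSNK1A1, which primes beta-catenin for degradation, at 0.17.

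The nuclear co-factors of beta-catenin gave 6 positive, 5 negative and 9 not called of 20. The share called was 55.0%, against 45.4% of all genes at or above 1 CPM and 51.9% from the median level upward. BCL9L and BCL9, which bridge beta-catenin to the PYGO proteins, were negative at -1.04 (SE 0.078, adjusted p = 1.27e-38 in edgeR's test) and -0.36 (adjusted p = 2.22e-11) in the authors' deposited table. PYGO1 was positive at 0.66 (adjusted p = 1.82e-15), as was TLE1, a co-repressor of TCF factors named after its value was seen, at 0.68 (adjusted p = 4.23e-08).

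Target genes named for the pathway in other tissues also went both ways, with 4 positive, 6 negative and 11 not called of 21 in the authors' deposited table. The share called was 47.6%, against 39.5% of all genes and 45.4% of those at or above 1 CPM. VEGFA (0.50) and the intestinal homeobox gene CDX2 (0.77) were positive, and the pseudoreceptor gene BAMBI (-0.92) negative. The classical targets MYC and CCND1, chosen after their values were seen, were at 0.14 (adjusted p = 0.0317) and -0.78 (adjusted p = 2.98e-04). Among genes of negative feedback the values were 0.38 for AXIN2, 0.34 for NKD1, 0.19 for ZNRF3 and 1.08 for NOTUM. RNF43 was not called, with the wide interval given above, and DKK1, another target gene (-2.22), and NKD2 (-0.26) were on the other side. These genes were put together after their values were seen, and no test was made of them as a set.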

How the data were processed

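Poly(A) RNA-seq of 3 knockout and 3 control samples of eHAP cells was used through the authors' deposited table. Per the submitters' processing notes, the tools were Trimmomatic, HISAT2, edgeR and featureCounts and the builds hg38 and dm6, with no versions. The sources used here do not give the strand setting of counting or the library scaling. The deposited log2 fold change and log2 CPM columns, the deposited p-value and FDR columns and the likelihood ratio, a deposited score per gene on 1 degree of freedom, are the authors' own, per the file headers. Depth per sample is unknown, and nothing in the labels beyond the word biological says how the replicates were grown.

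A gene was called where the authors' FDR, adjusted over their whole analysis, was under 0.05. Samples were not tested anew. Approximate SEs and 95% intervals come from the fold change and the likelihood ratio. The ratio of a Wnt gene's SE to the median SE of all genes in the same unit of log2 CPM ran from 0.774 for CTNNB1 to 1.64 for TCF7L2. For re-centring and trend removal a Wald test with this SE was used, with Benjamini-Hochberg adjustment. Without re-centring it called 6424 genes, including all 6244 of the authors. In a simulation of 15794 genes with the SEs of this comparison and normal errors, it called 156 of 200 genes given a log2 fold change of 1 or -1, and 11 of the unchanged genes. The simulated errors used the same SEs that the test divides by, so the run cannot check the approximation. It changed far fewer genes than were called here, so its recovery does not carry over to this comparison. Lowess (span 0.3, statsmodels 0.14.6) removed trends on transcript length and GC content from GENCODE 29, matched by symbol for 14777 genes (93.6%) and all 43 Wnt genes. Every Wnt gene is named. Exons of 16 of the 43 overlap those of another GENCODE gene, and only part of these overlaps is given here. Fuller statistics go to called genes with an absolute log2 fold change of at least 0.5 and to CTNNB1, AXIN2 and LEF1, and other called genes have theirs shortened. From the list of other pathway genes the 3 with the smallest p per role are named. The genes and lists were chosen with earlier results of these data known. Promoter windows are from RefSeq. Python 3.11.15, pandas 2.3.3, numpy 2.4.6, scipy 1.17.1 and matplotlib 3.10.9 were used.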

Additional observations from a re-analysis of the deposited data

How the results depend on the processing

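No paired analysis was possible because the table holds 1 comparison and no values per sample; for the same reason no replicate could be left out and no sample could be compared with another of its group. The alternatives run were an FDR of 0.01, adjustment over the rows of the table, a floor of 1 CPM, re-centring on the median gene, re-centring on ribosomal protein genes and removal of length and GC trends. Re-centring and trend removal use an approximate Wald test, which was also run without re-centring, an alternative chosen after seeing the data, and then gave the same 10 positive and 14 negative counts. The 24 called Wnt genes numbered 18 to 24 under them. At an FDR of 0.01, 6 were positive in place of 10, and 12 negative in place of 14. Among the other pathway genes the positive count was 18 by the authors' test, 20 by the approximate test and 30 when that test was re-centred on ribosomal protein genes, whose median log2 fold change was -0.08. FZD3 went from 0.19 to -0.043 with length and GC trends removed, the only called Wnt gene to change sign under these alternatives. That setting also ended the calls of 5 others (APC, DVL1, NKD2, PORCN and ZNRF3); the cause was not tested. Low levels limit the 7 Wnt genes below 1 CPM, where the half-width of the approximate 95% interval ran up to 3.36-fold (RNF43), with a call needing more.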
